A study of Homo sapiens with 42 samples.

Results

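The mRNAs of the cytosolic ribosomal proteins are described here as carriers of A-to-G changes written by a deaminase held in different parts of the cell. Members were all genes whose symbol has the form of a large subunit (RPL) or small subunit (RPS) protein, including RPLP0, RPLP1, RPLP2 and RPSA, chosen by name and not by value. The rule found 82 genes, 50 RPL and 32 RPS, among 11984 symbols in the 7 bulk tables used. All 82 had called sites in each of the 5 poly(A) tables, and 81 had them in both rRNA-depleted tables, where RPS10 appears only jointly with the read-through gene RPS10-NUDT3 (113 sites with NES and 138 with NLS).

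The study expressed TadA-8e, an enzyme that turns adenosine into inosine, which sequencing reads as G, as a transient fusion with GFP in cells of WT genotype. A nuclear export signal (NES) directs it to the cytoplasm and a nuclear localisation signal (NLS) to the nucleus, while ERM anchors it at the membrane of the endoplasmic reticulum. GFP-positive cells were sorted before RNA was extracted. The groups were HEK293T poly(A) RNA with NES, NLS or ERM, K562 poly(A) RNA with NES or NLS, and HEK293T rRNA-depleted RNA with NES or NLS, with 2 libraries each. HEK293T is a human embryonic kidney line with the SV40 T antigen and K562 is a human erythroleukaemia line. HEK293T cells received plasmid by lipofection and K562 cells by electroporation, so the line and the way of delivery cannot be told apart. Whether the replicates come from different cultures is not in the labels, and every p-value therefore reflects only how far libraries differ, which may be technical. A rate is the percentage of reads over an adenosine that carry G.

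A ribosome is built from a large and a small subunit, each an rRNA scaffold clothed with proteins, and nearly every one of these proteins is needed in equal number. Their mRNAs are among the most abundant of a growing cell. They typically start with a C followed by an unbroken run of pyrimidines, the terminal oligopyrimidine (TOP) motif, through which the mTOR pathway and LARP1 adjust their translation as a group. Many of the genes carry small nucleolar RNAs (snoRNAs) inside their introns, which are released from the spliced-out intron in the nucleus.

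The TOP motif is shown at the start of 3 RPL and 3 RPS genes with long runs because it is the feature of sequence that the members share and the selection did not use. Each line gives 10 bases before and 20 bases from a RefSeq start (GRCh38.p14), 5′ to 3′ on the gene's strand, with the run in capitals.
RPL39: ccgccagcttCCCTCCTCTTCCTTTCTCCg
RPL7A: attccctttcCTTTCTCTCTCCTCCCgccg
RPLP2: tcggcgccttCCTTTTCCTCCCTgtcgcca
RPS24: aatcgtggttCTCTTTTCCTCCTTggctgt
RPS21: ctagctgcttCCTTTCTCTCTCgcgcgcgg
RPS19: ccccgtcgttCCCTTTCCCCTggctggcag
They lie at chrX:119791611-119791640 (minus strand), chr9:133348208-133348237, chr11:809957-809986, chr10:78033853-78033882, chr20:62387093-62387122 and chr19:41860245-41860274 (all plus strand). The runs hold 19, 16, 13, 14, 12 and 11 bases in that order. Promoter entries matched 66 of the 82 members. A run of at least 5 pyrimidines that begins with C at an annotated start was found in 47 of these 66 genes (71.2%), against 5.14% of 27305 genes with an entry. The letters CTTTC, searched on both strands within 15 bases either side of a start, were found in 50% of the members and 9.27% of all genes. These matches describe the annotated starts and not starts measured in these cells.

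Called sites in the first 50 bases after a start are shown for 6 genes because they let a reader see which adenosines near the start were written. The 6 were taken in the order of their HEK293T NES rate at a site called in all 5 poly(A) tables, and capitals mark every adenosine called with NES in HEK293T poly(A) RNA.
RPS6: gAggcgttcagctgcttcAAgAtgaaggta
RPS3: cggcggcaAgAtggcAgtgcAAAtAtccAA
RPL18: cggacctggccgagcAggAggcgccatcAt
RPL13: tggcctttgggcatcAtccagcgccatcgg
RPS23: gcccgtggcgccgAcAggAtgggtgagctg
RPL14: tcgcctaacgccgccAAcAtggtgagtctt
They lie at chr9:19380187-19380216 (minus), chr11:75399538-75399567 (plus), chr19:48619142-48619171 (minus), chr16:89560731-89560760 (plus), chr5:82278312-82278341 (minus) and chr3:40457343-40457372 (plus). In RPS3, 9 of the 10 adenosines were called, and in RPL13 only 1 of 4. All called sites of any gene in the first 50 bases were adenosines in RefSeq in every table, for example 2455 of 2455 with NES in HEK293T, which checks that positions and strands match the hg38 assembly.

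RPS6, the small subunit protein phosphorylated downstream of mTOR, held the highest of these sites, the 19th base of its window (chromosome 9, position 19380198). It was changed in 49.4% and 50.8% of reads with NES in HEK293T, 35.3% and 35.0% with ERM, and 14.1% and 13.9% with NLS. In K562 it was changed in 67.4% and 66.9% with NES and in 12.1% and 13.1% with NLS. The replicates of NES, ERM and NLS do not overlap in HEK293T, nor do those of NES and NLS in K562. The adenosine next to it, at position 19380197, had 38.1% and 40.3% with NES against 10.3% and 10.46% with NLS in HEK293T. In RPL13 the order of NES and NLS was different in HEK293T: its site at 89560746 on chromosome 16 had 19.1% and 14.5% with NES and 22.1% and 21.7% with NLS. In K562 its NES libraries, at 11.3% and 24.7%, lay on both sides of its NLS libraries, at 13.6% and 12.4%. The RefSeq start used for this RPL13 window was one without a pyrimidine run.

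Among the member sites called in all 5 poly(A) tables, 117 lay in the first 50 bases after a RefSeq start and 7377 elsewhere. Only 66 of the 82 members had such a start, so elsewhere includes every site of the other members. The comparison is therefore not within the same genes. The mean rate near the start was 5.52% in both HEK293T NES libraries, against 7.60% and 7.61% elsewhere. With NLS it was 2.29% and 2.35% near the start and 3.05% and 3.11% elsewhere. Sites near the start were thus lower in every poly(A) library of both constructs, K562 included. In K562 they had 7.55% and 7.85% against 10.2% and 10.3% with NES. With NLS they had 1.87% in both K562 libraries against 2.87% and 2.89%. Over all called member sites in rRNA-depleted RNA, those near the start were higher with NES, at 6.58% and 9.11% against 6.08% and 8.65%. With NLS they were lower there, at 10.2% and 10.34% against 11.03% and 11.11%. These rest on 66 sites near the start with NES and 77 with NLS.

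The base before an adenosine also went with its rate in that window. With NES in HEK293T, called member adenosines after T had a mean of 9.63% and 9.18%, those after C 5.34% and 5.30%, those after A 3.67% and 3.84%, and those after G 1.98% in both libraries. Of all adenosines after G in the start windows of members with a called site there, 36.4% were called, against 7.98% over all genes with a called site. After A the shares were 46.8% and 7.64%, and after C 56.2% and 17.1%, but after T they lay close together, at 44.1% and 43.8%. Abundant mRNAs can be covered by more reads and so have sites of lower rate called, and the depth behind each fraction is unknown, so the part of coverage in this difference was not tested.

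The called sites of members had lower mean rates than all called sites, which include members and noncoding RNAs. The median called member site was at 2.39% and 2.41% in the HEK293T NES libraries, against 8.46% and 8.44% over all sites. Abundant mRNAs can have more sites of low rate called. Depth is unknown, so the part of coverage in this difference was not tested. In HEK293T poly(A) RNA, the mean over all 12951 called member sites was 6.30% ± 0.0318 (SD, n = 2) with NES, against 11.1% ± 0.0226 over all 907935 sites. With NLS the means were 5.99% ± 0.0956 and 8.80% ± 0.213, and with ERM 4.08% ± 0.0756 and 8.99% ± 0.132. In K562, NES gave 8.33% ± 0.0400 for members and 13.6% ± 0.0413 for all sites, and NLS gave 5.17% ± 0.0416 and 10.2% ± 0.0983. The member mean was below that of all sites in all 10 poly(A) libraries. In rRNA-depleted RNA the member means were 7.37% ± 1.82 with NES and 11.1% ± 0.0601 with NLS, against 19.5% ± 2.66 and 18.95% ± 0.0873 over all sites. The rRNA-depleted NES replicates stood apart from each other over all sites, at 17.6% and 21.4%, and over member sites, at 6.08% and 8.66%.

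Across genes, the HEK293T NES rates ran from 3.63% for RPL21 to 16.6% for RPL39L, with a median of 6.16%. With NLS they ran from 1.85% for RPL21 to 13.4% for RPL37 and with ERM from 2.01% for RPL3 to 18.1% for RPL39L. In K562 the range with NES was 5.14% (RPL3) to 17.3% (RPL39L) and with NLS 1.42% (RPL23) to 12.9% (RPS9). RPL39L, a paralog known for its expression in testis, thus headed 3 of the 5 poly(A) groups, but on few sites: 28 with NES and 6 with ERM in HEK293T and 32 with NES in K562.

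The members with the most sites called with both NES and NLS in HEK293T were RPL4, RPL15, RPL6 and RPL3 in the large subunit and RPS3A, RPS6, RPS4X and RPS23 in the small. RPL4, a large protein of the exit tunnel, had 6.09% and 6.12% with NES over 385 sites and 5.51% and 5.52% with NLS over 366 sites. RPL3, which helps form the peptidyl transferase centre, had 4.10% and 4.05% with NES, 5.46% and 5.58% with NLS and 2.05% and 1.97% with ERM. Over all called sites RPL3 was thus higher with NLS than with NES in HEK293T, and the same held for RPL6, RPS4X and RPS6. RPS6 had 6.12% and 6.22% with NES, 7.26% and 7.18% with NLS, and 4.29% and 4.22% with ERM in HEK293T. In K562 the order in RPS6 was the other way, with 8.19% and 8.41% with NES and 2.75% and 2.72% with NLS. RPS23, a protein of the decoding centre, reached 16.2% in both K562 NES libraries, and 3.63% and 3.59% with NLS.

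The order over all called sites depends on which sites each construct added. In HEK293T, 10487 member sites were called with both constructs, 2464 only with NES and 2168 only with NLS. At the sites called with both, the NES libraries gave 6.65% and 6.62% and the NLS libraries 2.97% and 3.05%. The sites called only with NLS had mean rates of 20.2% and 20.6%, and those called only with NES had 4.95% and 4.83%. Member sites called only with the nuclear enzyme thus had the highest mean rate of the 3 kinds. Over all genes the NLS-only sites had 10.6% and 10.95%, beside 10.2% in both libraries for NES-only sites.

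NLS-only member sites also had the highest mean rate in K562 and in rRNA-depleted RNA. In K562, 1750 NLS-only member sites had 18.8% and 19.04%, 2676 NES-only sites had 6.34% and 6.33%, and 9753 shared sites had 8.84% and 8.91% with NES and 2.696% and 2.71% with NLS. In rRNA-depleted RNA, 2999 NLS-only sites had 21.7% in both libraries, 874 NES-only sites had 6.45% and 7.86%, and 7458 shared sites had 6.04% and 8.75% with NES and 6.74% and 6.85% with NLS. Over all genes, NLS-only sites had 12.3% and 12.6% in K562, beside 12.4% and 12.5% for NES-only sites. In rRNA-depleted RNA the all-gene rates were 19.7% and 19.4% for NLS-only and 19.1% and 22.1% for NES-only sites. The member NLS-only rate there was thus near that of all genes, while member NES-only and shared sites were lower. Members shared more of their sites between constructs than all genes did, with 81.0% of their NES sites and 82.9% of their NLS sites in HEK293T shared, against 48.8% and 77.1%.

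NLS-only sites were spread over the family. In HEK293T, 81 of 82 members had at least 1, and among the 55 with at least 10 the mean rate ran from 3.42% to 36.7%, with a median of 21.3%. RPL37, whose protein is a zinc-finger protein of the large subunit, had the most, 95 sites at 23.1%, followed by RPL30 (94 sites at 22.4%), RPS2 (85 sites at 9.06%), RPL6 (66 sites at 25.2%) and RPS6 (63 sites at 22.4%). In K562 the members with the most were RPS9 (89 sites at 25.4%), RPLP0 (85 sites at 16.98%) and RPL30 (84 sites at 23.5%). In rRNA-depleted RNA, RPL3 alone had 226 NLS-only sites at 25.4%, beside 248 shared and 4 NES-only sites. In HEK293T, 37 members had more NLS-only than NES-only sites and 43 had fewer. The counts were 18 and 62 in K562, and 70 and 10 in rRNA-depleted RNA. The balance over all genes moved too, with 131614 NLS-only and 464686 NES-only sites in HEK293T poly(A) RNA. There were 136970 and 521976 in K562, and 139274 and 143899 in rRNA-depleted RNA. The share of all genes with an NLS-only site, or with more NLS-only than NES-only sites, was not counted, and members have many called sites. No exon annotation was used, so the share of NLS-only sites in introns was not tested.

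One class of site can be placed in an intron-hosted RNA by its name, since the tables list it under a member and a snoRNA together. Such sites numbered 71 with NLS, 10 with NES and 0 with ERM in HEK293T poly(A) RNA. In K562 they numbered 53 with NLS and 3 with NES, and in rRNA-depleted RNA 113 with NLS and 6 with NES. Over all genes, sites listed under a snoRNA numbered 265 with NLS, 24 with NES and 4 with ERM in HEK293T poly(A) RNA. The all-gene numbers were 276 with NLS and 23 with NES in K562, and 311 and 15 in rRNA-depleted RNA. The excess with NLS was thus not particular to members. The snoRNA-labelled sites of members carry a joint name, so they are not among the member sites counted elsewhere here. They are few beside the 12655 and 12951 member sites called with NLS and NES in HEK293T. Their mean rate was 21.5% and 21.8% in the 2 HEK293T NLS libraries and 27.8% and 28.5% in the rRNA-depleted NLS libraries. In HEK293T poly(A) RNA the NLS sites came from 12 host genes and 23 snoRNAs.

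RPS2 was the host with the most such sites, in SNORA64 and SNORA10 together. SNORA64 within RPS2 (chromosome 16, 1962976 to 1963090, minus strand) held 13 sites at 12.6% and 12.3% with NLS in HEK293T, and 1 site at 9.30% and 9.40% with NES. SNORD68 within RPL13 held 5 sites at 24.9% and 22.6% with NLS in HEK293T poly(A) RNA and 12 sites at 17.9% and 20.4% in rRNA-depleted RNA. The reads behind these sites were not separated into snoRNA and host transcript.

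The individual adenosines of highest mean rate over all 7 tables were single positions in RPLP0, RPL5, RPL9, RPL10, RPS15A and RPL15. RPLP0 encodes the stalk protein that anchors RPLP1 and RPLP2, and its adenosine at position 120199120 of chromosome 12 (minus strand) was changed in 79.1% ± 0.403 of reads with NES, 46.5% ± 0.308 with NLS and 67.8% ± 2.06 with ERM in HEK293T (SD, n = 2). In K562 it reached 92.6% ± 0.0458 with NES and 44.7% ± 0.723 with NLS. RPL5, which with RPL11 binds MDM2 when ribosome assembly is disturbed, had 77.2% ± 0.917 with NES, 42.2% ± 0.246 with NLS and 68.7% ± 1.15 with ERM at position 92834796 of chromosome 1. In all 6 sites, both NES libraries lay above both ERM libraries and both ERM above both NLS libraries in HEK293T. In rRNA-depleted RNA the NES replicates of the RPLP0 site were 45.1% and 66.5%, with the NLS replicates at 50.6% and 51.4% between them.

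Genes were then compared over the sites called in both groups, with the log2 rate of each gene set against the median gene of the same comparison. Sites called with 1 construct only are left out, among them the 2168 NLS-only member sites at 20.2% and 20.6% in HEK293T. Over all genes the NLS-only sites there had 10.6% and 10.95%. The calls therefore describe shared sites and not all called sites. The median called NLS site in HEK293T was at 1.49% and 1.53% for members, against 6.45% and 6.76% over all sites. Depth is unknown, so the part of coverage in the contrast of members with all genes was not tested, here or below. Of members with at least 5 shared sites, 81 were tested in HEK293T for NES against NLS. On limma with Benjamini-Hochberg adjustment over 6739 genes, 69 members were higher with NES than the median gene and 3 lower, where 32.9% of all genes were higher and 31.9% lower. The median member difference was 0.55 log2 above the median gene, which itself was 0.66 log2 higher with NES. As deposited, without that centring, 80 members were higher and 0 lower, against 77.8% and 6.11% of all genes.

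RPS27A, made as a fusion of ubiquitin and a small subunit protein, had the largest difference in HEK293T: 6.81% and 6.94% with NES and 1.86% and 1.93% with NLS over 108 sites, a relative log2 difference of 1.20 (SE 0.06, adjusted p = 2.5e-10). RPS3A followed with 5.02% and 5.22% against 1.63% and 1.70%, a relative log2 difference of 0.96. RPL13A, the IFN-γ-responsive translation regulator, was at 0.92 and RPL29 at 0.90 relative log2. The NES and NLS libraries of these genes do not overlap, which the rule for naming the highest members required.

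The 3 lower members were RPL22L1, RPL18 and RPL37. RPL22L1, a paralog of RPL22, had 6.00% and 6.01% with NES and 5.59% and 5.62% with NLS over 9 shared sites, a relative log2 difference of -0.56 (adjusted p = 0.0032). RPL18 had 5.47% and 5.25% against 4.17% and 4.09% (-0.28, adjusted p = 0.00046), and RPL37 had 11.7% and 11.3% against 8.26% and 8.65% (-0.21, adjusted p = 0.0019). As deposited all 3 were higher with NES, by 0.10, 0.38 and 0.45 log2, and the mean of log2 site fractions put RPL37 at 0.21 above the median gene (adjusted p = 0.0018).

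By role, all of the tested members singled out by function other than RPL22L1 were higher with NES in HEK293T. The stalk proteins RPLP0, RPLP1 and RPLP2 differed by 0.17, 0.59 and 0.53 relative log2. Summarised by its median site instead of its mean, RPLP0 fell below the median gene (-0.32, limma adjusted p = 0.0008). RPL5 and RPL11 differed by 0.76 and 0.62, RPSA, known also as a laminin receptor, by 0.67, and RPS6 by 0.76. Among genes whose proteins are known to adjust the splicing of their own pre-mRNA, RPL3 (0.68), RPL12 (0.80) and RPS13 (0.80) differed more than RPL10A (0.42) and RPS3 (0.18). All these differences are over shared sites. Over all called sites RPL3 and RPS6 were higher with NLS, and so was RPL11, at 7.30% and 7.85% against 4.72% and 4.93% with NES.

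In K562 the members stood further from the median gene. Of 82 tested, 79 were higher with NES and 1 lower on limma, where 37.4% of 6523 genes were higher and 37.3% lower. The median member difference was 1.12 log2 above the median gene, which was itself 0.72 log2 higher with NES. As deposited 81 members were higher and 1 lower, against 80.2% and 5.89% of all genes.

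RPL23, a protein of the large subunit that also binds MDM2, led in K562 with 7.97% and 8.31% with NES and 1.36% and 1.43% with NLS over 89 sites (relative log2 difference 1.83, SE 0.05, adjusted p = 1.7e-08). RPS27A had 9.47% and 9.68% against 1.90% and 1.80% (1.65). RPS20 (1.60), RPS24 (1.56) and RPL36A (1.53) followed. RPL22L1 was the lower one, with 9.91% and 9.43% with NES and 14.2% and 12.98% with NLS over 12 sites (-1.21, adjusted p = 1.1e-05), and it was also the 1 member lower with NES as deposited. RPL7L1, a paralog of RPL7, and RPL37 did not pass the test, at 0.01 and 0.08.

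By role, the stalk proteins RPLP0, RPLP1 and RPLP2 were higher with NES in K562 by 0.52, 1.03 and 1.12 relative log2. RPL5 and RPL11 were higher by 1.31 and 1.14, RPSA by 0.72 and RPS6 by 1.53. Of the genes known to adjust their own splicing, RPL3 was higher by 1.34, RPS13 by 1.11, RPL10A by 1.09, RPS3 by 1.06 and RPL12 by 0.98. Among the paralogs RPL39L (1.14, on 6 sites), RPS27L (0.95) and RPL26L1 (0.64) were higher.

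**Figure D1:**
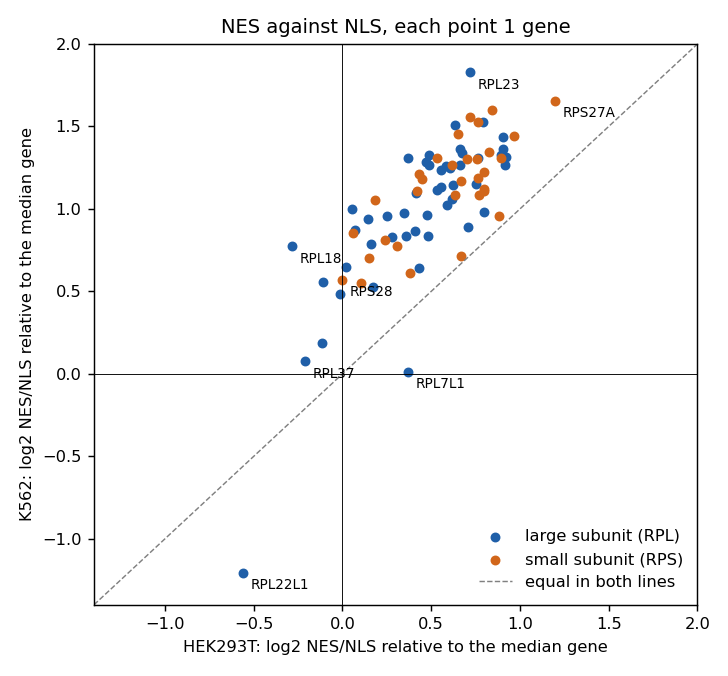
Log2 ratio of the NES to the NLS rate of each member tested in both lines, relative to the median gene, in HEK293T (horizontal) and K562 (vertical). Each point is 1 gene, blue for RPL and orange for RPS, and the dashed line marks equal values; all points but RPL22L1 and RPL7L1 lie above it.

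The difference between lines was tested as an interaction on sites called in all 4 groups. On limma the NES over NLS difference was larger in K562 for 72 of 81 members and smaller for 2, where 18.4% of 5172 genes were larger and 16.5% smaller. The median member interaction was 0.43 log2 relative to the median gene. As deposited 77 were larger and 2 smaller, against 29.1% and 8.68% of all genes. The 2 smaller ones were RPL22L1 and RPL7L1, and RPL22L1 drops out of the test when at least 10 shared sites are required. Of the 81 members tested in both lines, 68 were higher with NES in both (84.0%), against 28.8% of 5534 genes tested in both.

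RPL23 had the largest interaction, with 7.79% and 8.10% with NES and 1.33% and 1.39% with NLS in K562, beside 4.597% and 4.83% with NES and 1.72% and 1.81% with NLS in HEK293T (1.01, SE 0.07, adjusted p = 1.1e-07). RPL31 (0.74), RPS28 (0.73), RPL27A (0.72) and RPL34 (0.72) came next. RPL22L1 rested on 5 sites here, with 7.42% and 6.63% with NES and 14.6% and 12.6% with NLS in K562, and 6.87% and 7.47% with NES and 5.12% and 6.13% with NLS in HEK293T (-1.43, SE 0.23, adjusted p = 0.00017).

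Each construct was also compared between lines, K562 against HEK293T. With NES, 37 of 82 members were higher in K562 than the median gene and 6 lower on limma, against 24.8% and 23.7% of 7252 genes, with a median member difference of 0.09. With NLS, 2 of 81 were higher and 55 lower, against 19.4% and 20.8% of 5661 genes, with a median of -0.25. The median gene was 0.35 log2 higher in K562 with NES and 0.23 higher with NLS. As deposited the counts were 79 higher and 0 lower with NES (73.9% and 2.28% of all genes), and 17 higher and 19 lower with NLS (48.6% and 6.89%). The NES count of 37 rests on both K562 libraries: without K562 NES replicate 1 it was 20 and without replicate 2 it was 22.

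RPS29 (0.40), RPL21 (0.39), RPL23 (0.39) and RPL14 (0.34) were among the members with a large K562 excess with NES on the relative log2 scale. RPS29 had 16.9% and 16.2% in K562 and 9.35% and 10.3% in HEK293T. RPL7L1 (-0.43), RPS2 (-0.39), RPSA (-0.26), RPL12 (-0.23) and RPL41 (-0.19) were lowest, and RPSA, RPL12 and RPL41 were higher in K562 as deposited. With NLS, RPL23 (-0.61), RPS3 (-0.52), RPL34 (-0.51), RPL8 (-0.49) and RPL35A (-0.45) were lowest. RPL22L1 had 12.8% and 12.3% with NLS in K562 and 5.00% and 5.06% in HEK293T (1.09, adjusted p = 1.7e-07), and RPS23 was the other higher member (0.16, adjusted p = 0.048), a value that turned to -0.05 with the median of site fractions.

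The ERM enzyme, anchored at the endoplasmic reticulum membrane, was compared with NES in HEK293T. Of 81 members, 62 were lower with ERM than the median gene and 1 higher on limma, where 20.9% of 6884 genes were lower and 12.9% higher. The median member difference was -0.29 log2, and the median gene was lower with ERM by -0.66. As deposited 81 were lower and 0 higher, against 91.2% and 0.0726% of all genes. RPS15 had 2.37% and 2.25% with ERM and 6.66% and 6.31% with NES (-0.83, adjusted p = 9.6e-06). RPL7A (-0.81), RPS3 (-0.80), RPL3 (-0.75) and RPL24 (-0.67) followed. RPL27A was the 1 higher member (0.20, adjusted p = 0.008), a call lost as deposited, where it was -0.47, turned to -0.17 with the mean of log2 site fractions, and not made without NES replicate 1. By role, RPLP1 (-0.58), RPLP2 (-0.60), RPL11 (-0.53) and RPSA (-0.16) were lower with ERM, while RPS6 (-0.09) did not pass the test.

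Against NLS, ERM split the family. On limma 40 of 80 members were higher with ERM than the median gene and 16 lower, where 29.8% of 5826 genes were higher and 31.1% lower, with a median member difference of 0.18. As deposited 55 were higher and 12 lower, against 40.5% and 22.5% of all genes, and with the mean of log2 site fractions 33 were higher and 28 lower. RPS27A had 5.39% and 5.34% with ERM and 2.24% and 2.31% with NLS (1.10, adjusted p = 1.1e-08), and RPS6 (0.78), RPS19 (0.70) and RPS27L (0.70) were also among the highest. RPL7A had 2.41% and 2.42% against 3.62% and 3.72% (-0.74, adjusted p = 2.7e-07), ahead of RPS15 (-0.66), RPS28 (-0.64), RPL18 (-0.62) and RPS3 (-0.53). These 3 HEK293T comparisons share libraries and are not independent of each other.

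**Figure D2:**
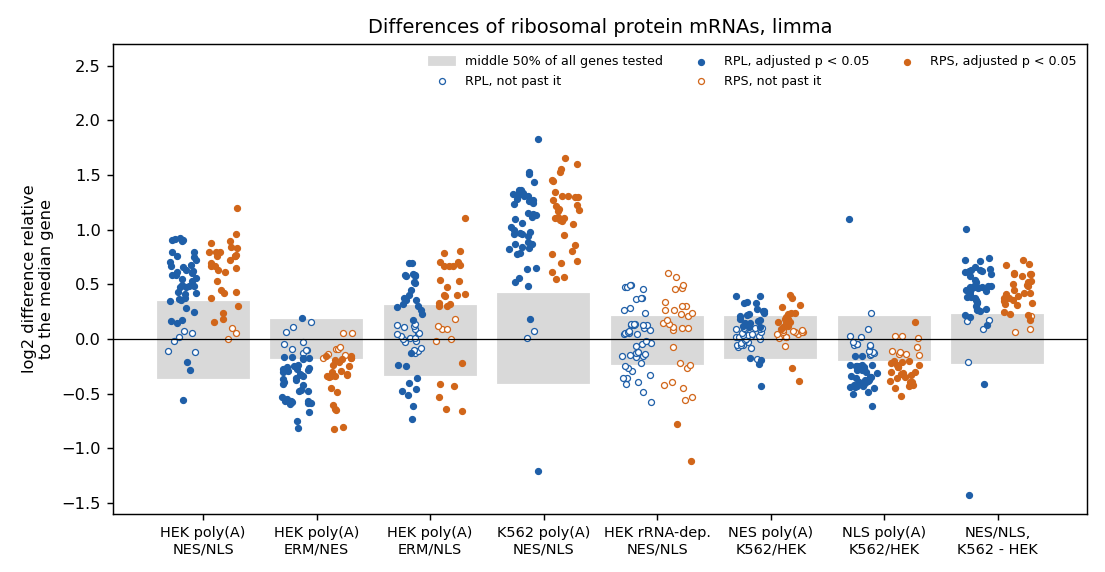
Log2 difference of each member relative to the median gene (linear axis) in the 8 comparisons. Each point is 1 gene, filled where the limma adjusted p is under 0.05, with RPL genes in blue and RPS in orange; grey boxes span the middle 50% of all genes tested, and the members stand above them most clearly in K562 for NES against NLS.

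In rRNA-depleted HEK293T RNA few members passed the test. In simulated data it recovered 0% of genes moved by 1 log2 for this comparison. The simulation drew noise for each gene alone, whereas the NES replicates here differ as whole libraries. The 0% is therefore not read as the power of the test on these data. Of 79 tested, 0 were higher with NES and 2 lower on limma, where 0.989% of 5357 genes were higher and 3.70% lower, and 14 members (17.7%) had an unadjusted p under 0.05, near the 16.4% of all genes. As deposited the counts were again 0 and 2, against 1.23% and 3.51% of all genes. The 2 were RPS28, with 2.79% and 4.32% with NES and 7.39% and 7.38% with NLS (-1.12, SE 0.23, adjusted p = 0.00026), and RPS15, with 4.42% and 7.53% against 9.31% and 10.2% (-0.78, adjusted p = 0.025). When each library was centred on its own median gene, a setting chosen after seeing the data, 18 members were higher and 17 lower. Without NES replicate 1 there were 36 higher and 15 lower, without NES replicate 2 there were 17 and 24, and without either NLS replicate there were 0 of either kind. No direction for the family is drawn from this comparison.

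Poly(A) and rRNA-depleted RNA were set side by side over sites called in both. With NLS, the member sites had 4.95% and 5.08% in poly(A) RNA and 9.03% and 9.17% in rRNA-depleted RNA, and all 79 members with at least 5 such sites had both rRNA-depleted libraries above both poly(A) libraries. Over all genes 4912 of 4960 did. With NES, the member sites had 7.34% and 7.35% in poly(A) RNA and 6.07% and 8.67% in rRNA-depleted RNA, with 9 of 80 members above and 13 below. Over all genes 5190 of 6328 were above and 57 below with NES, at 13.8% in both poly(A) libraries and 18.1% and 22.3% in the rRNA-depleted ones.

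The large and small subunits were set side by side without a test. The median RPL gene had 6.09% ± 0.0384 and the median RPS gene 6.26% ± 0.125 with NES in HEK293T (SD over 2 libraries). With NLS they had 5.03% ± 0.0479 and 5.31% ± 0.0472, and with ERM 3.64% ± 0.0509 and 4.201% ± 0.0919. In K562 they had 8.04% ± 0.0114 and 8.53% ± 0.0207 with NES, and 4.30% ± 0.0176 and 4.32% ± 0.0272 with NLS. In rRNA-depleted RNA the order differed by construct, with RPL below RPS with NES (6.78% ± 1.70 and 7.24% ± 1.75) and above it with NLS (10.6% ± 0.209 and 9.76% ± 0.0259). The order turned over when means over members replaced medians with NLS in both lines and with NES in rRNA-depleted RNA. Genes of 1 library are not replicates.

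Calls were counted by subunit as well. For NES against NLS in HEK293T, 40 of 49 RPL and 29 of 32 RPS genes were higher, against 32.9% of all genes, with medians of 0.49 and 0.67. In K562 it was 47 of 50 and 32 of 32, against 37.4% of all genes, with medians of 1.08 and 1.18. For ERM against NLS, 20 of 48 RPL and 20 of 32 RPS genes were higher, with 10 and 6 lower, where 29.8% of all genes were higher and 31.1% lower, and the medians were 0.10 and 0.36. The difference between subunits was not tested.

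The paralogs outside the usual ribosome had site counts of their own. RPL3L and RPL10L were not found in the tables used. RPL22L1 had 14 sites with NES and 13 with NLS in HEK293T, and 12 and 36 in K562. RPS27L, a p53 target, had 13.2% and 12.7% with NES and 4.21% and 4.74% with NLS in HEK293T (0.88), and RPL26L1 had 14.0% and 14.4% against 6.08% and 7.31% (0.43). Because ribosomal protein genes have many near-identical processed pseudogenes, the assignment of reads to a gene is uncertain for any member.

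Other gene groups of the same machinery were counted beside the members and beside all genes, of which 32.9% were higher and 31.9% lower with NES in HEK293T and 37.4% and 37.3% in K562. Of 26 other TOP mRNAs, such as EEF2 (0.24) and EEF1A1 (-0.32), 19 were higher with NES and 4 lower in HEK293T, and 24 and 2 in K562, with medians of 0.49 and 0.81. Their interaction was larger in K562 for 19 and smaller for 1, or 73.1% and 3.85%, against 18.4% and 16.5% of all genes. Of 78 mitochondrial ribosomal protein mRNAs, which carry no TOP motif as a rule and whose proteins work in the mitochondrion, 58 were higher and 3 lower in HEK293T and 59 and 3 of 74 in K562, with medians of 0.49 and 0.62. Their interaction was larger in K562 for 13 and smaller for 9 of 73, or 17.8% and 12.3%, near the shares of all genes, with a median of 0.04. For ERM against NES, 25 of 26 other TOP mRNAs were lower and 0 higher, against 14 lower and 6 higher of 78 mitochondrial ribosomal protein mRNAs, where 20.9% of all genes were lower and 12.9% higher.

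Of 36 ribosome assembly factors, 17 were higher with NES and 9 lower in HEK293T, and 14 and 7 in K562, or 47.2% and 25% in HEK293T and 38.9% and 19.4% in K562, with medians of 0.17 and 0.10. The K562 share of higher genes was near that of all genes. Of 15 measured regulators of TOP mRNAs, 6 were higher and 3 lower in HEK293T and 8 and 5 in K562, with medians of -0.03 and 0.14. LARP1, which binds the TOP motif, was itself the middle gene of that list in both lines (not past the test in HEK293T, higher with NES in K562). The lists overlap in function with the members and were not tested as sets.

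The labelled lines matched their markers in the number of called sites. All 14 erythroid markers had sites in both K562 groups and 0 of 14 in HEK293T poly(A) groups, with 1 site of EPOR in each rRNA-depleted group. Of the 6 HEK293T markers 4 had sites in HEK293T, PAX2 and LIX1 being at 0, and none had sites in K562. Of 3 nuclear RNAs, MALAT1 had 274 sites with NLS and 0 with NES in HEK293T, and 971 and 32 in K562. TUG1 had 523 and 88 in HEK293T but 239 and 257 in K562, and NEAT1 had 0 in every poly(A) group. The amount of each enzyme and the rates in control cells were not analysed here.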

How the data were processed

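RNA of sorted GFP-positive cells, selected for poly(A) tails or depleted of rRNA, went through a stranded kit, per the labels' protocols. Per the submitters' processing notes, cutadapt, STAR, Bowtie2 and SAMtools were used with hg38, with no versions named. How sites were called is not stated there or in the labels. The authors deposited a fraction of changed reads per site and replicate, without read numbers, and an adjusted p-value against control, which is at most 0.05 at every listed site. Depth is therefore unknown and no counting interval is given. The name of a table gave its line, construct and RNA selection, and its columns gave the replicate.

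A gene's rate was its mean fraction over the sites called in all groups compared. Genes with at least 5 such sites were fitted by limma (3.58.1, under R 4.3.3) on log2 rates, using a trend with the logarithm of site number. Tests were two-sided, with Benjamini-Hochberg adjustment over all genes and a threshold of 0.05. Differences are relative to the median gene. On simulated data with genes moved by 1 log2, 83% were recovered for NES against NLS in HEK293T, 91% in K562 and 0% in rRNA-depleted RNA. Noise was drawn for each gene alone, so the simulation held no shift of a whole library like that between the rRNA-depleted NES replicates. Alternatives changed the site summary, filter, scale, centring, trend, site set and replicate block, or left out a library. Members named with values are the 5 highest and 5 lowest past the threshold whose groups do not overlap, those with the most shared sites and those with a listed role. A few members that meet this rule are counted but not reported here by name. Lists set beside them are other TOP mRNAs, mitochondrial ribosomal proteins, ribosome assembly factors and regulators of TOP mRNAs. Members and lists were chosen with earlier results of these data known. Sequences are from RefSeq (GRCh38.p14), matched by symbol. Tables and plots were made in Python 3.11.15 (pandas 2.3.3, numpy 2.4.6; plots with matplotlib 3.10.9).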

Additional observations from a re-analysis of the deposited data

Results flagged for a closer look

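The NES over NLS difference was compared between HEK293T and K562 as an interaction in limma, and it differed between the lines for many members. It was larger in K562 for 72 members and smaller for 2, against 18.4% and 16.5% of all genes. The largest were RPL23 at 1.01, RPL31 at 0.74, RPS28 at 0.73, RPL27A at 0.72 and RPL34 at 0.72 relative log2, and the 2 smaller were RPL22L1 at -1.43 and RPL7L1 at -0.41. Plasmid delivery differed between the lines, so its part and the line's part cannot be told apart. With 2 libraries per group no single library was tested as standing apart.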

How the results depend on the processing

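Of 1940 alternative values for 126 named gene differences, 1825 kept direction and side of the threshold, 99 kept direction but no longer passed, and 16 changed sign; the cause was not tested. As deposited, without centring, RPL22L1 was 0.10, RPL18 0.38 and RPL37 0.45 (HEK293T NES against NLS), RPL27A -0.47 (ERM against NES), RPSA 0.086, RPL12 0.12 and RPL41 0.15 (NES between lines) and RPS27A 0.026 (NLS between lines). With the median of site fractions RPLP0 was -0.32 (HEK293T NES against NLS), RPL27A -0.66 (ERM against NES), RPSA -0.00206 and RPS13 -0.18 (ERM against NLS), and RPS23 -0.0534 (NLS between lines). With the mean of log2 fractions RPL37 was 0.21 and RPLP0 -0.14 (HEK293T NES against NLS) and RPL27A -0.17 (ERM against NES).

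Counts that moved by over 1.5 times were these. For HEK293T NES against NLS, 5 members were lower with the median, logit or pseudocount 0.01, and 0 as deposited. For ERM against NES, higher members numbered 0 with the median, the mean of logs, as deposited or without a trend, 2 with the pseudocount, and 3 with at least 10 sites, the logit or sites of all 3 constructs. For ERM against NLS, 28 were lower with the mean of logs. In rRNA-depleted RNA, 5 were lower with the median or the mean of logs, 1 with the logit, and 18 were higher and 17 lower with each library centred on its own median gene, an alternative chosen after seeing the data. For NES between lines, higher members numbered 22 with the median, 24 with the logit, 20 without a trend and 79 as deposited, and lower ones 11 with the logit and 0 as deposited. For NLS between lines, 1 was higher with the median, mean of logs, no site filter, logit, pseudocount, no trend or sites of both constructs in both lines, and as deposited 17 were higher and 19 lower. The interaction had 1 smaller with at least 10 sites.

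Leaving out 1 library gave 64 to 69 higher and 3 lower for HEK293T NES against NLS, 0 to 1 higher and 55 to 57 lower for ERM against NES, 39 to 41 and 14 to 16 for ERM against NLS, 79 to 80 and 1 for K562, 0 to 36 and 0 to 24 in rRNA-depleted RNA, 20 to 36 and 4 to 7 for NES between lines, 1 to 2 and 48 to 53 for NLS between lines, and 64 to 72 and 2 for the interaction. The lone library left was assumed to vary like the others. The median RPS minus RPL gene, in percentage points, ran from -0.0118 to 0.0516 over the K562 NLS libraries. Taken as a mean over members it was -0.19 with HEK293T NLS (0.24 for the median without a site filter), 0.14 with ERM, 0.58 with K562 NES, -0.23 with K562 NLS and -0.25 with rRNA-depleted NES.

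Titles share replicate numbers, and correlations of replicate deviations ran from -0.0209 to 0.0894. With 2 pairs these values cannot show whether samples of the same number share an origin. With the replicate block, 1 member was higher for NLS between lines in place of 2, and no other count moved by over 1.5 times. Unknown depth limits every rate.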
